A study of Homo sapiens with 10 samples.

Results

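The genes of oxidative phosphorylation are described here across human ESCs and the neuroectodermal cells (NECs) derived from them. The members were the rows of the RNA-seq count table on chromosome MT, plus the nuclear rows whose symbol starts with NDUF, SDHA, SDHB, SDHC, SDHD, UQCR, COX4, COX5, COX6, COX7, COX8 or ATP5. Nuclear rows with a hyphen, or ending in P and digits, were left out, which removed 4 rows (COX6A1P2, ATP5EP2, ATP5J2-PTCD1 and NDUFC2-KCTD14). This gave 106 of the 31017 genes in the table, 13 of them protein-coding genes of chromosome MT and 93 nuclear. The 13 are called the mRNAs of chromosome MT below, counted per gene and not per transcript. No measured value entered the choice. All nuclear members but 3 (COX4NB, ATP5S and ATP5SL) were listed here as a subunit or an assembly factor of a complex. COX4NB, now called EMC8, is not a respiratory chain gene. The table has no row for a mitochondrial rRNA.

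RNA-seq and promoter capture Hi-C (PCHi-C) were each made from 2 biological replicates of the H9 (WA09) ESC line, grown in Pluripro medium, and of NECs that had been differentiated from H9 for 7 days. All cells come from this single line. The ESC RNA libraries shared a sequencing lane and the NEC libraries shared a different one, hence lane and cell type cannot be told apart. RNA-seq totals were between 19234087 and 25356382 counts per library, and the labels held in that all 9 pluripotency markers with a row fell in NECs and all 10 neuroectoderm markers rose. In bulk RNA, fewer cells of a type and less RNA per cell cannot be told apart.

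Oxidative phosphorylation passes electrons from NADH and succinate along complexes I to IV of the inner mitochondrial membrane to oxygen, and the proton gradient that results drives ATP synthase, complex V. Subunits come from both genomes: the mitochondrial genome, which is transcribed by its own polymerase POLRMT with the factor TFAM, and a much larger set of nuclear genes whose products are imported. Complex II is made from nuclear genes alone. Pluripotent cells are known for active glycolysis beside respiration.

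Gene positions are those of GRCh37. Levels are given as CPM, the counts scaled to the TMM-normalised size of the library, and differences as log2 fold changes of NECs against ESCs (log2FC) with their standard error (SE). A gene rose or fell where the Benjamini-Hochberg adjusted p of edgeR's quasi-likelihood test was under 0.05 over the 17564 genes tested. Of the 106 members, 101 passed the low-count filter. Among these 101, 6 rose, where 31.5% of all tested genes rose, and 46 fell, where 29.7% of all tested genes fell. The other 49 did not pass. The ESC and NEC libraries did not overlap for 82 of the 101 members, and for 83.8% of all tested genes. Past an absolute log2FC of 1.5 as well was 1 member, ATP5L2, where 21.0% of all tested genes were past both limits. The number that rose and the number past the fold limit both changed with 1 library left out. The share of all tested genes past the fold limit was counted in the main fit alone. The median log2FC was −0.30 over the 101 members and 0.01 over all tested genes.

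**Figure D1:**
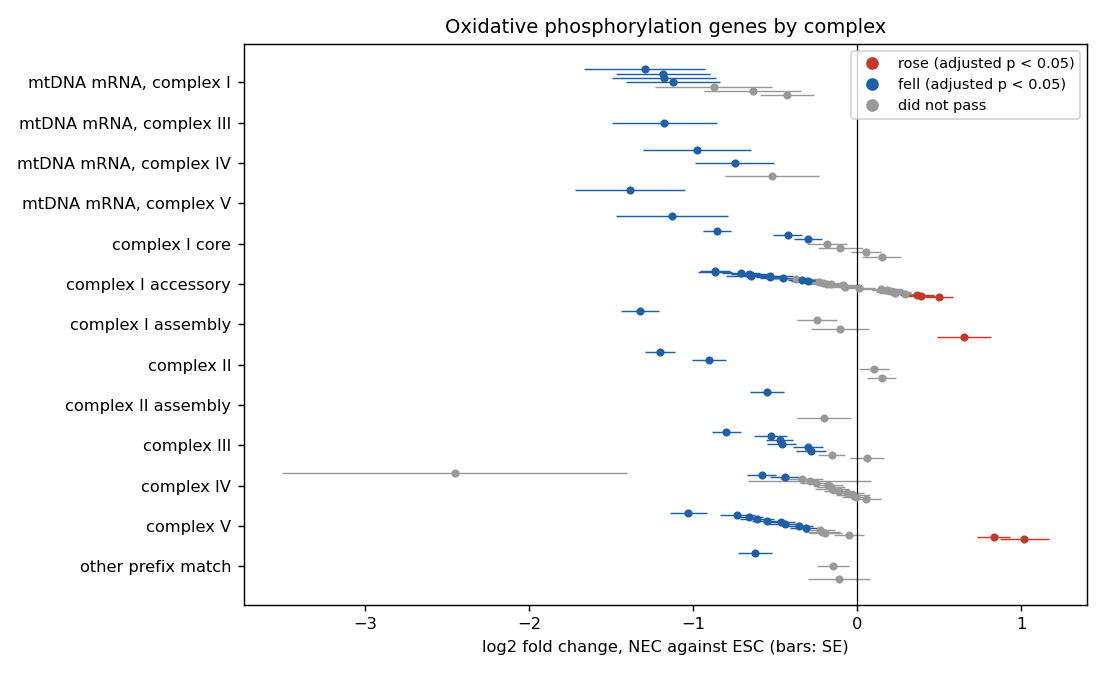
log2FC (NEC against ESC) of the tested members grouped by complex, with bars for the SE and colour for the test (ATP5L2, at 0 counts in both NEC libraries, is left out). The mRNAs of chromosome MT lie between −1.38 and −0.43, left of most nuclear members.

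The mRNAs of chromosome MT were lower in NECs in all 13 cases, with log2FC from −1.38 to −0.43 and a median of −1.12. Of these, 9 fell (69.2%, against 29.7% of all tested genes) and 4 did not pass. The 13 took 2.80% and 4.52% of all counts in ESC replicates 1 and 2, against 1.62% and 2.53% in NEC replicates 1 and 2. The cell types did not overlap, but ESC replicate 1 and NEC replicate 2 lay close together, and replicate 2 was the higher one in both cell types. The means were 3.66% ± 1.22 in ESCs and 2.08% ± 0.65 in NECs (SD, n = 2). The 93 nuclear members varied much less between replicates, with 0.973% and 0.925% of the counts in ESCs and 0.829% and 0.808% in NECs.

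Complex I, the NADH dehydrogenase, takes 7 of these mRNAs, and 4 of them fell. MT-ND4 (chromosome MT, 10760 to 12137) fell from 3544 and 5314 CPM (ESC) to 1563 and 2511 CPM (NEC) (log2FC −1.12, SE 0.29, adjusted p = 0.0143). MT-ND5 fell from 1846 and 3859 CPM (ESC) to 913 and 1412 CPM (NEC) (log2FC −1.30, SE 0.37, adjusted p = 0.0213). Both ESC libraries were above both NEC libraries for each of these. MT-ND4L (log2FC −1.18, SE 0.29, adjusted p = 0.0115) and MT-ND6 (log2FC −1.18, SE 0.31, adjusted p = 0.0170) also fell. MT-ND1 (log2FC −0.88, SE 0.36, adjusted p = 0.0733), MT-ND2 (log2FC −0.64, SE 0.30, adjusted p = 0.104) and MT-ND3 (log2FC −0.43, SE 0.17, adjusted p = 0.0627) did not pass. MT-ND2 overlapped between the cell types, with 1550 and 2439 CPM in ESCs and 967 and 1598 CPM in NECs.

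MT-CYB, the cytochrome b of complex III, fell from 1681 and 2692 CPM (ESC) to 699 and 1237 CPM (NEC) (log2FC −1.18, SE 0.32, adjusted p = 0.0185). In complex IV, MT-CO3 (log2FC −0.98, SE 0.33, adjusted p = 0.0388) and MT-CO2 (log2FC −0.75, SE 0.24, adjusted p = 0.0345) fell. MT-CO1 encodes the subunit that holds the oxygen-reducing centre. It had 6933 and 10789 CPM in ESCs and 4928 and 7431 CPM in NECs, which overlap, and it did not pass (log2FC −0.52, SE 0.29, adjusted p = 0.160). In complex V, MT-ATP8 had the largest fall of the 13, from 761 and 1382 CPM (ESC) to 308 and 513 CPM (NEC) (log2FC −1.38, SE 0.34, adjusted p = 0.0116). MT-ATP6, subunit a of the proton channel, fell from 2653 and 4895 CPM (ESC) to 1317 and 2132 CPM (NEC) (log2FC −1.13, SE 0.34, adjusted p = 0.0266).

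**Figure D2:**
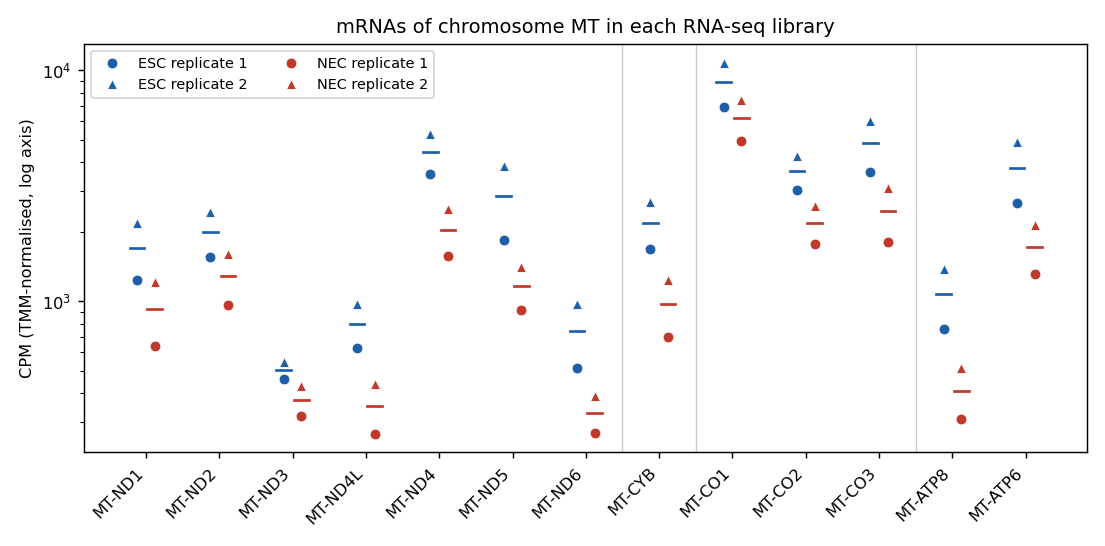
CPM (log axis) of each of the 13 mRNAs of chromosome MT in the 4 RNA-seq libraries, with horizontal bars for the mean of each cell type. Replicate 2 is above replicate 1 in both cell types for every gene, and for MT-ND2 and MT-CO1 NEC replicate 2 reaches above ESC replicate 1.

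The calls on chromosome MT depended on single libraries. Without ESC replicate 2, 2 of the 13 fell and the median log2FC was −0.63, and without NEC replicate 1, 4 fell with a median of −0.81. Of all genes tested, 21.8% and 26.4% fell in these 2 fits. Without ESC replicate 1, 11 fell with a median of −1.41, and without NEC replicate 2, all 13 fell with a median of −1.48, beside 24.1% and 29.6% of all genes. All 13 also fell with no filter on low counts (24.1% of all genes), and 7 fell by DESeq2's test (27.7% of all genes). None rose under any of these fits.

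The summed levels of cell type markers also differed between replicates, and not all in the same direction. The 9 measured pluripotency markers summed to 5599 and 6104 CPM in the ESC pair and 354 and 729 CPM in the NEC pair, and NEC replicate 2, with the higher mitochondrial share of its pair, also had the higher sum. POU5F1 was at 31.0 and 111 CPM in NECs, but in ESCs it was lower in replicate 2 (1482 and 1438 CPM). Of the 10 mesendoderm markers, 9 were tested and 8 fell, where 29.7% of all tested genes fell. They summed to 92.4 and 221 CPM in the ESC pair and 8.38 and 8.23 CPM in the NEC pair. ESC replicate 2, with the higher mitochondrial share, had the higher sum, while the NEC sums lay close together. EOMES accounted for 15.3 and 45.8 CPM of the ESC sums. The 10 neural crest markers, of which 8 rose, summed to 42.6 and 32.4 CPM in the ESC pair and 272 and 129 CPM in the NEC pair. The 10 neuroectoderm markers summed to 8.32 and 6.63 CPM in the ESC pair and 1264 and 798 CPM in the NEC pair. No marker list was at 0 as a whole, but TFAP2B of the neural crest list had 0 counts in both ESC libraries. The part of these markers in the mitochondrial result was not tested.

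**Figure D3:**
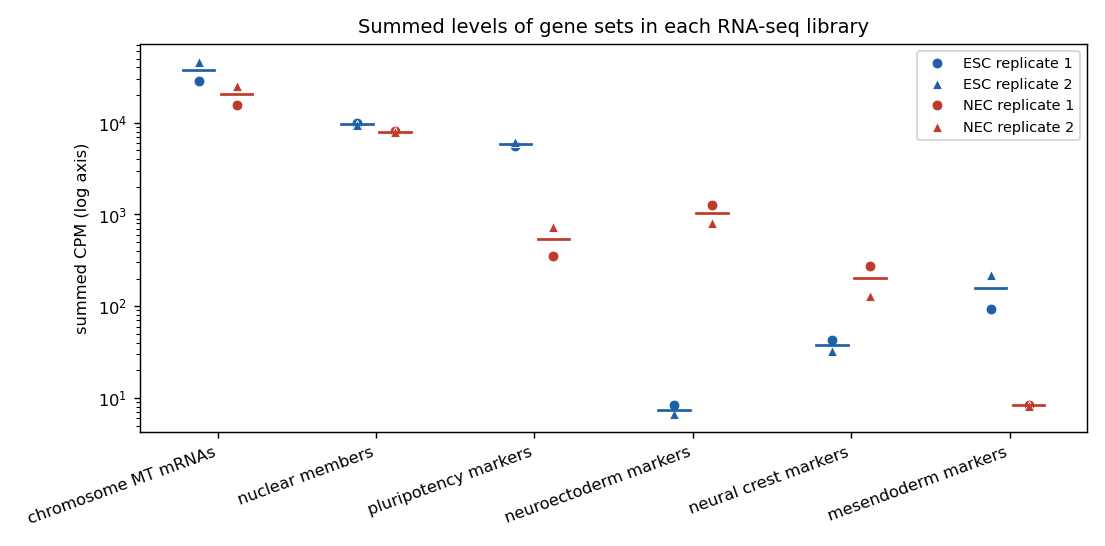
Summed CPM (log axis) of the 13 mRNAs of chromosome MT, the 93 nuclear members and the lists of cell type markers in the 4 RNA-seq libraries. The mitochondrial sum is 15770 in NEC replicate 1 and 24985 in NEC replicate 2, while the nuclear members sum to 8069 and 7963.

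The make-up of the mitochondrial counts also differed between the cell types. MT-CO1 took 24.3% and 23.3% in ESCs against 31.2% and 29.7% in NECs of the counts on chromosome MT. MT-CYB took 5.90% and 5.81% in ESCs against 4.43% and 4.95% in NECs, and MT-ATP8 took 2.67% and 2.98% in ESCs against 1.96% and 2.05% in NECs. For all 3 genes the libraries of the cell types did not overlap. This was not particular to them, since only MT-ND1 and MT-CO2 of the 13 overlapped. By CPM, a different measure, 83.8% of all tested genes did not overlap. The shares of a library also add up to a fixed whole, so a larger share of MT-CO1 leaves less for the rest. MT-ND1 took 4.35% and 4.69% in ESCs against 4.08% and 4.87% in NECs. As shares within a library, these values do not depend on how the libraries were scaled. Per length, MT-CO3, MT-CO1 and MT-ATP6 had the highest mean levels in ESCs, at 6153, 5746 and 5542 CPM per kb, and MT-CO1 led in NECs with 4007 CPM per kb. MT-CO3 was the highest in each ESC library, at 4634 and 7671 CPM per kb. MT-CO1 (4496 and 6997) was above MT-ATP6 (3895 and 7189) in ESC replicate 1 and below it in ESC replicate 2. Among 14500 protein-coding genes ranked by level per kb over both cell types, the 13 lay between rank 1 and rank 46.

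Several of these genes share bases, so some reads are uncertain. The end of MT-ATP8 and the start of MT-ATP6 overlap on the plus strand of GRCh37 at chrM:8527-8572. This stretch of 46 bases is shown because reads from it cannot be assigned to either gene alone, and both fell. Capitals mark the start codon of MT-ATP6 and the stop codon of MT-ATP8.
MT-ATP8 and MT-ATP6 overlap: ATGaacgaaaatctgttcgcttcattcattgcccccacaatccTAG
MT-ND4L and MT-ND4 share 7 bases, and both fell. The rows of such overlapping genes are not independent of each other. MT-ND6 lies on the minus strand, and counting without regard to strand cannot tell its reads from antisense transcripts. Nuclear copies of mitochondrial DNA also match. Of the words of 32 bases in MT-CO1, 68.4% occur exactly in the nuclear chromosomes of GRCh37, as do 64.3% in MT-ATP6 and 55.9% in MT-ND2. The share is 6.58% in MT-CYB and 3.49% in MT-ND3. The part of such copies in the counts was not tested.

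Among the nuclear subunits of complex I, some fell and some rose. Of 37 tested, 14 fell (37.8%), 3 rose (8.11%) and 20 did not pass, with a median log2FC of −0.18. Among all tested genes, 29.7% fell and 31.5% rose. Among the 7 core subunits, NDUFS1, the largest iron-sulfur subunit, fell from 134 and 144 CPM (ESC) to 77.7 and 75.8 CPM (NEC) (log2FC −0.85, SE 0.09, adjusted p = 0.000385). NDUFV2, an iron-sulfur subunit of the NADH-binding module, fell from 109 and 99.8 CPM (ESC) to 78.0 and 77.3 CPM (NEC) (log2FC −0.42, SE 0.09, adjusted p = 0.00618). NDUFS8, an iron-sulfur subunit near the quinone site, overlapped between the cell types and did not pass (log2FC 0.15, SE 0.12, adjusted p = 0.314). Without NEC replicate 2, NDUFS8 passed (log2FC 0.29, adjusted p = 0.0484).

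Of the 30 accessory subunits, 11 fell (36.7%) and 3 rose (10%), where 29.7% and 31.5% of all tested genes did. NDUFA5, in the peripheral arm, fell from 62.6 and 63.6 CPM (ESC) to 33.1 and 36.0 CPM (NEC) (log2FC −0.87, SE 0.09, adjusted p = 0.000479). NDUFAB1, the mitochondrial acyl carrier protein, fell from 115 and 98.4 CPM (ESC) to 58.0 and 59.2 CPM (NEC) (log2FC −0.87, SE 0.10, adjusted p = 0.000749). NDUFB11, a subunit of the membrane arm, rose from 69.8 and 69.5 CPM (ESC) to 101 and 95.8 CPM (NEC) (log2FC 0.50, SE 0.08, adjusted p = 0.00277). For these 3 the cell types did not overlap. NDUFA6, which binds the acyl carrier protein, rose from 64.8 and 62.2 CPM (ESC) to 79.8 and 86.0 CPM (NEC) (log2FC 0.39, SE 0.09, adjusted p = 0.00990), but its adjusted p was 0.05004 without ESC replicate 1 and 0.0831 without ESC replicate 2. NDUFA3 also rose (log2FC 0.36, SE 0.10, adjusted p = 0.0222), but its adjusted p was 0.0758 without ESC replicate 1, 0.152 without ESC replicate 2, 0.0693 without NEC replicate 1 and 0.0531 by DESeq2's test. NDUFC2 and ATP5J2 overlap the readthrough rows NDUFC2-KCTD14 (1140 to 1343 counts per library) and ATP5J2-PTCD1 (1343 to 1907 counts), so their own values are uncertain.

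The 4 assembly factors of complex I went in different directions. NDUFAF4 (chromosome 6, 97337189 to 97345757) fell from 43.9 and 45.5 CPM (ESC) to 16.4 and 19.3 CPM (NEC) (log2FC −1.32, SE 0.12, adjusted p = 0.000242). NDUFAF3 (chromosome 3, 49057892 to 49060905) rose from 13.5 and 14.3 CPM (ESC) to 24.8 and 18.9 CPM (NEC) (log2FC 0.65, SE 0.17, adjusted p = 0.0139), and without ESC replicate 1 its adjusted p was 0.0508. NDUFAF1 (log2FC −0.10, SE 0.18, adjusted p = 0.632) and NDUFAF2 (log2FC −0.24, SE 0.12, adjusted p = 0.121) did not pass.

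Complex II, succinate dehydrogenase, also belongs to the citric acid cycle. Of its 4 genes, 2 fell, where 29.7% of all tested genes fell, and 2 did not pass. SDHB, the iron-sulfur subunit (chromosome 1, 17345217 to 17380665), fell from 69.7 and 73.1 CPM (ESC) to 30.2 and 31.8 CPM (NEC) (log2FC −1.20, SE 0.09, adjusted p = 0.000140). SDHD, a membrane anchor, fell from 82.6 and 82.9 CPM (ESC) to 41.0 and 47.6 CPM (NEC) (log2FC −0.90, SE 0.10, adjusted p = 0.000612). Neither gene overlapped between the cell types. SDHA, the flavoprotein subunit, was at 82.6 and 76.7 CPM in ESCs and 88.6 and 82.1 CPM in NECs (log2FC 0.10, SE 0.09, adjusted p = 0.379). SDHC, the other anchor, was at 68.1 and 73.4 CPM in ESCs and 77.1 and 79.9 CPM in NECs (log2FC 0.15, SE 0.09, adjusted p = 0.187). Within the 4 genes, SDHB took 23.4% ± 0.623 in ESCs and 12.97% ± 0.296 in NECs of the CPM (SD, n = 2), and SDHC took 23.2% ± 1.06 in ESCs and 32.8% ± 0.406 in NECs. SDHAF2, which adds the flavin to SDHA, fell (log2FC −0.55, SE 0.10, adjusted p = 0.00430), and SDHAF1 did not pass (log2FC −0.20, SE 0.17, adjusted p = 0.322).

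The 250 bases before the start of SDHB and SDHD are shown because these were the genes of complex II that fell. They are RefSeq promoters of GRCh38.p14, given 5′ to 3′ on the strand of the gene (SDHB, chr1:17054033-17054282, minus strand; SDHD, chr11:112086623-112086872, plus strand). Capitals mark, on either strand, the motif of the factor NRF1 (GCGC, any base, then TGCGC) and CCGGAAG, a motif of ETS factors such as GABPA. The promoter of SDHA, which did not pass, holds 4 matches to the NRF1 motif and none to the ETS motif.
SDHB: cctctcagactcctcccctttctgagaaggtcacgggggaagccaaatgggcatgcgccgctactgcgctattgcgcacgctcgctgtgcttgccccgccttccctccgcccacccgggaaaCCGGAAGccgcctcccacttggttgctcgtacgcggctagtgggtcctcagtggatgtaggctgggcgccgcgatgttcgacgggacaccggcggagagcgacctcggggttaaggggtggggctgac
SDHD: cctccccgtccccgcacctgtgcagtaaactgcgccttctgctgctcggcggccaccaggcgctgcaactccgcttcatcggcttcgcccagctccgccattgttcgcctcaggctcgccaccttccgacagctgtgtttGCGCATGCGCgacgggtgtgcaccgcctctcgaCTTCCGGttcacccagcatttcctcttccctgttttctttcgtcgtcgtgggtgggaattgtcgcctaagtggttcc
Promoters were listed for 75 of the 93 nuclear members, and the first listed start of each gene was searched on both strands. The NRF1 motif occurred in 14 of the 75 (18.7%) and in 7.65% of the promoters of 15843 protein-coding genes. The ETS motif occurred in 19 (25.3%), against 11.8%. AAGATGGC, the motif of YY1, occurred in 1 (1.33%), against 1.39%. Of the 30 tested members with an NRF1 or ETS motif, 17 fell and 1 rose, with a median log2FC of −0.30. Of the 42 with neither, 14 fell and 5 rose, with a median of −0.20. Of all tested genes, 29.7% fell and 31.5% rose. The difference between members with and without a motif was not tested, and a match describes letters and is no sign of binding. The factors themselves did not pass, with NRF1 at 27.7 and 27.9 CPM in ESCs and 34.9 and 31.9 CPM in NECs (log2FC 0.27, SE 0.10, adjusted p = 0.0622), and GABPA at 55.5 and 52.0 CPM and 47.3 and 48.0 CPM (log2FC −0.17, SE 0.09, adjusted p = 0.136). NRF1 passed without NEC replicate 2 (adjusted p = 0.0456).

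Complex III passes electrons from ubiquinol to cytochrome c. Of its 8 nuclear genes, 6 fell, none rose and 2 did not pass, with a median log2FC of −0.38. Among all tested genes, 29.7% fell and 31.5% rose. UQCRH, the hinge protein, fell from 277 and 264 CPM (ESC) to 151 and 159 CPM (NEC) (log2FC −0.80, SE 0.09, adjusted p = 0.000517). UQCRQ, a small membrane subunit, fell from 60.4 and 64.3 CPM (ESC) to 40.6 and 45.8 CPM (NEC) (log2FC −0.53, SE 0.10, adjusted p = 0.00466). UQCRB (log2FC −0.15, SE 0.08, adjusted p = 0.145) and UQCR10 (log2FC 0.06, SE 0.10, adjusted p = 0.645) did not pass. The summed level of the 8 genes was 1159 ± 22.4 CPM in ESCs and 871 ± 7.73 CPM in NECs (SD, n = 2).

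Complex IV is cytochrome c oxidase. Of its 14 tested nuclear genes, 2 fell (14.3%), none rose and 12 did not pass, with a median log2FC of −0.17. Among all tested genes, 29.7% fell and 31.5% rose. COX5A, next to the core, fell from 152 and 138 CPM (ESC) to 97.4 and 96.3 CPM (NEC) (log2FC −0.58, SE 0.09, adjusted p = 0.00182). COX7C, a small membrane subunit, fell from 304 and 293 CPM (ESC) to 215 and 224 CPM (NEC) (log2FC −0.44, SE 0.09, adjusted p = 0.00536). COX5B (log2FC 0.05, SE 0.09, adjusted p = 0.632) and COX6C (log2FC −0.01, SE 0.09, adjusted p = 0.943) overlapped between the cell types.

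Complex IV is also where tissue isoforms exist, and of each group 1 isoform or more was near or at 0. COX4I1 had 4442 to 5613 counts per library and COX4I2 0 to 2 counts. COX6A1 had 2287 to 2853 counts, and COX6A2, the isoform of heart and skeletal muscle, had 0 in all 4 libraries. COX7A2 had 1783 to 2360 counts and its relative COX7A2L 1591 to 2000 counts. COX7A1, another muscle isoform, had 5 and 10 counts in ESCs and 0 in both NEC libraries, which is at least 2.56-fold lower against 3 counts per library. COX7B had 1310 to 2068 counts and COX7B2 had 0 throughout. COX8A had 2693 to 3134 counts and COX8C at most 3. COX6B1 had 2444 to 3052 counts, against 11 to 17 counts for COX6B2 (log2FC −0.29, SE 0.37, adjusted p = 0.531). The common isoforms had log2FC of −0.25 for COX4I1, −0.11 for COX6A1, −0.16 for COX6B1, −0.18 for COX7A2, −0.15 for COX7A2L, −0.34 for COX7B and −0.06 for COX8A, and none of these passed. With 1 library left out, COX7B reached −0.52 without NEC replicate 2, where it passed (adjusted p = 0.00685), and −0.17 without NEC replicate 1 (adjusted p = 0.220). COX4I1 passed without NEC replicate 1 (log2FC −0.34, adjusted p = 0.0166).

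NDUFA4, first assigned to complex I and now to complex IV, was at 201 and 199 CPM in ESCs and 180 and 211 CPM in NECs (log2FC −0.03, SE 0.10, adjusted p = 0.824). Its paralog NDUFA4L2, known to be induced by low oxygen, had 99 and 11 counts in ESCs and 12 and 11 in NECs. ESC replicate 1 alone was high. It did not pass (log2FC −2.45, SE 1.05, adjusted p = 0.0834), and its log2FC was 0.15 without ESC replicate 1 and −3.38 (adjusted p = 0.000574) without ESC replicate 2.

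Complex V makes ATP from the gradient. Of its 16 genes, 10 fell (62.5%), 2 rose (12.5%) and 4 did not pass, with a median log2FC of −0.40. Among all tested genes, 29.7% fell and 31.5% rose. ATP5B, the catalytic beta subunit, had the highest level per length of the nuclear members in ESCs, at 624 CPM per kb, and fell from 1105 and 1091 CPM (ESC) to 677 and 646 CPM (NEC) (log2FC −0.73, SE 0.11, adjusted p = 0.00151). ATP5E, the epsilon subunit, rose from 35.2 and 40.6 CPM (ESC) to 67.2 and 67.7 CPM (NEC) (log2FC 0.83, SE 0.10, adjusted p = 0.000823). Both genes had no overlap between the cell types.

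ATP5G1, ATP5G2 and ATP5G3 encode the same mature c subunit, which forms the rotating ring, and differ in the peptide that targets it to mitochondria. ATP5G1 (chromosome 17, 46970127 to 46973233) fell from 88.7 and 81.9 CPM (ESC) to 38.2 and 45.3 CPM (NEC) (log2FC −1.03, SE 0.11, adjusted p = 0.000524). ATP5G3 (chromosome 2, 176040986 to 176049335) fell from 306 and 300 CPM (ESC) to 195 and 188 CPM (NEC) (log2FC −0.66, SE 0.09, adjusted p = 0.000997). ATP5G2 (chromosome 12, 54026510 to 54071192) rose from 221 and 179 CPM (ESC) to 448 and 362 CPM (NEC) (log2FC 1.02, SE 0.15, adjusted p = 0.00161). None of the 3 overlapped between the cell types. Their sum was 616 and 561 CPM in ESCs and 681 and 596 CPM in NECs, which overlap. Within this sum, ATP5G2 took 33.9% ± 2.86 in ESCs and 63.3% ± 3.502 in NECs (SD, n = 2), and ATP5G3 took 51.6% ± 2.72 in ESCs and 30.1% ± 2.09 in NECs.

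**Figure D4:**
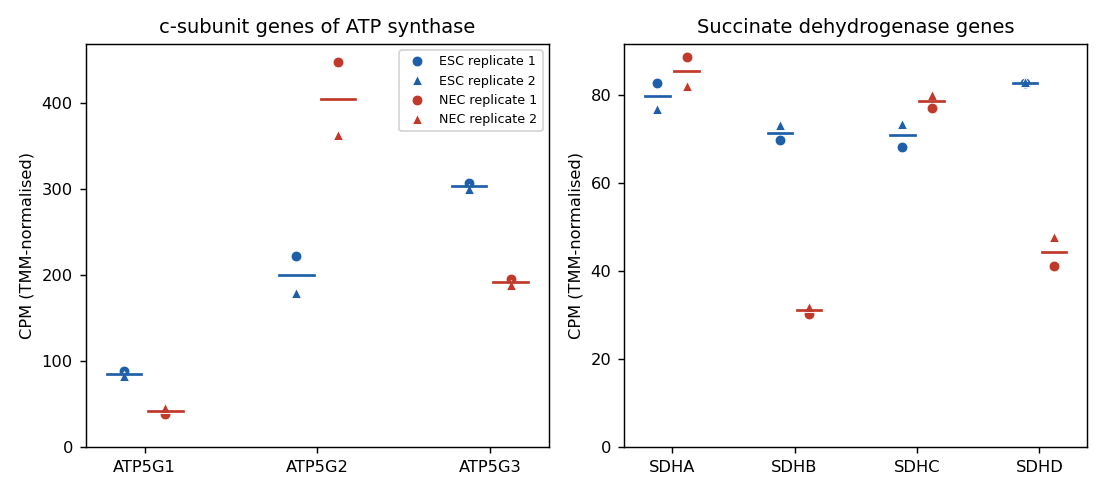
CPM of the c-subunit genes of ATP synthase and of the succinate dehydrogenase genes in the 4 RNA-seq libraries, with horizontal bars for the mean of each cell type. ATP5G2 is higher in both NEC libraries while ATP5G1 and ATP5G3 are lower, and SDHB and SDHD are lower in both NEC libraries.

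The longest run of bases that the canonical transcripts of any 2 of the c-subunit genes share is 17. The 250 bases before the start are shown for the gene that rose and the gene with the larger fall, from RefSeq promoters of GRCh38.p14 on the strand of the gene (ATP5G1, chr17:48892537-48892786, plus strand; ATP5G2, chr12:53676084-53676333, minus strand).
ATP5G1: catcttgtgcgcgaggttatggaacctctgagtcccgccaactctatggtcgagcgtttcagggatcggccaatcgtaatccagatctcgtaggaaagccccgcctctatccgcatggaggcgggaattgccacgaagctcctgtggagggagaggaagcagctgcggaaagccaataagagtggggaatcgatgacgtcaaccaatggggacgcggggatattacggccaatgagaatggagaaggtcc
ATP5G2: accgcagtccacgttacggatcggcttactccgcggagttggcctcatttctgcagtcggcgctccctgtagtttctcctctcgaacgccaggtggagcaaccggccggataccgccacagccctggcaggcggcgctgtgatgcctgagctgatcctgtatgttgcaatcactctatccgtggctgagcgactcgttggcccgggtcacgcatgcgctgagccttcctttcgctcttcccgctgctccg
Neither window holds the NRF1, ETS or YY1 letters searched above, so no base is in capitals.

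ATP5L2 (chromosome 22, 43035809 to 43036607), a copy of ATP5L, which encodes subunit g, had 108 and 137 counts in ESCs and 0 in both NEC libraries, at least 43.0-fold lower against 3 counts per library (adjusted p = 0.000151). ATP5L itself fell (log2FC −0.35, SE 0.08, adjusted p = 0.00908), but its adjusted p was 0.0533 without ESC replicate 1 and 0.0710 without ESC replicate 2. Their transcripts share a run of 68 bases, and 10.03% of the words of 32 bases in ATP5L2 occur in ATP5L. COX6A1P2, a copy left out by the rule, had 758 and 918 counts in ESCs and 217 and 267 in NECs (log2FC −1.88, SE 0.12, adjusted p = 6.92e-05), and shares a run of 210 bases with COX6A1. The annotation calls only 29 rows processed pseudogenes, and 12 of them were tested. Of these 12, 9 fell (75%) and 1 rose (8.33%), with a median log2FC of −3.55, where 29.7% of all tested genes fell and 31.5% rose. The part of read assignment between copies in these values was not tested.

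Genes that work with the members were taken from 6 lists. Their counts stand beside the 29.7% of all tested genes that fell and the 31.5% that rose. Of 5 genes of the respiratory chain or ATP synthase that the name rule misses, 4 fell and none rose, with a median log2FC of −0.61. CYCS, cytochrome c, fell from 287 and 301 CPM (ESC) to 73.7 and 90.6 CPM (NEC) (log2FC −1.84, SE 0.12, adjusted p = 8.48e-05). C14orf2, a small protein bound to ATP synthase, did not pass (log2FC 0.10, SE 0.09, adjusted p = 0.343). Of 19 genes that maintain or transcribe mitochondrial DNA or act on its RNA, 15 fell and 2 rose, with a median of −0.69. TFAM fell from 143 and 153 CPM (ESC) to 69.7 and 86.7 CPM (NEC) (log2FC −0.92, SE 0.12, adjusted p = 0.00109). POLRMT fell from 109 and 111 CPM (ESC) to 69.6 and 65.2 CPM (NEC) (log2FC −0.70, SE 0.09, adjusted p = 0.000776). SLIRP, which with LRPPRC stabilises mitochondrial mRNAs, had the largest fall of the list (log2FC −1.20, SE 0.14, adjusted p = 0.000609), and MTERFD3, of the transcription terminator family, the largest rise (log2FC 1.38, SE 0.17, adjusted p = 0.000875).

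Of 20 assembly genes of cytochrome oxidase, 10 fell and 2 rose (median −0.34), where 29.7% of all tested genes fell and 31.5% rose. C1orf31, now called COA6, fell (log2FC −1.06, SE 0.12, adjusted p = 0.000678), and COA5 rose (log2FC 0.74, SE 0.11, adjusted p = 0.00164). Of 14 other assembly genes, 4 fell and 1 rose (median −0.15), with TMEM126B of complex I falling (log2FC −0.99, SE 0.11, adjusted p = 0.000538) and C6orf125, now called UQCC2, of complex III rising (log2FC 0.93, SE 0.15, adjusted p = 0.00234). Of 20 genes of the citric acid cycle and pyruvate dehydrogenase, 12 fell and 2 rose (median −0.29). IDH3A, of the NAD-dependent isocitrate dehydrogenase, fell from 33.9 and 36.4 CPM (ESC) to 10.4 and 12.4 CPM (NEC) (log2FC −1.62, SE 0.13, adjusted p = 0.000181). IDH2, the NADP-dependent enzyme of mitochondria, rose from 61.8 and 51.7 CPM (ESC) to 190 and 168 CPM (NEC) (log2FC 1.66, SE 0.12, adjusted p = 0.000118). Of 12 regulators of mitochondrial genes, 5 fell and 2 rose (median −0.05). The coactivators PPARGC1B (log2FC −2.39, SE 0.18, adjusted p = 0.000144) and PPARGC1A (log2FC −0.96, SE 0.25, adjusted p = 0.0142) fell, the latter with an adjusted p of 0.0739 without ESC replicate 1. ESRRB, a nuclear receptor, rose from 3 and 2 counts to 30 and 30 (adjusted p = 0.00122).

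PCHi-C records which genomic fragments are in contact with baited promoter fragments. Each deposited list holds pairs with a CHiCAGO score of at least 12, where the score is a weighted negative log p-value, and a promoter-interacting region (PIR) is the fragment at the far end of a call. The lists give no read numbers, and the depth of a call is unknown. The start of 87 of the 93 nuclear members lay in a bait, in 86 distinct baits, since COX4I1 and COX4NB share one. For 44 members the bait also held the start of another gene, so a call there is not tied to the member alone.

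In the merged lists, which are the authors' pooled calls, 69 of the 86 baits (80.2%) had a PIR in ESCs and 72 (83.7%) in NECs. The shares were 82.4% and 84.2% over all 14924 baits with the start of a protein-coding gene. Member baits had 404 PIRs in ESCs against 385 in NECs, a mean of 4.70 and 4.48 per bait, where all such baits had 4.92 and 4.95. By replicate there were 353 and 329 for ESCs but 376 and 283 for NECs, a wider gap within NECs than between the merged lists. This gap was not particular to the members. All such baits had 67209 and 61108 in ESC replicates and 71138 and 58520 in NEC replicates, beside 73459 and 73888 in the merged lists. The merged lists shared 180 PIRs, which is 44.6% of those in ESCs and 46.8% of those in NECs. Replicates of ESCs shared 98, or 27.8% and 29.8% of each list, and replicates of NECs 72, or 19.1% and 25.4%. Between the cell types, ESC and NEC replicate 1 also shared 98, or 27.8% and 26.1%. ESC and NEC replicate 2 shared 60, or 18.2% and 21.2%. Over all baits of protein-coding genes the merged lists shared 45.01% and 44.75%, so the overlap of the merged lists was not particular to the members. There the ESC replicates shared 25.22% and 27.74%, and the NEC replicates 21.97% and 26.71%. Between the cell types, replicate 1 shared 27.80% and 26.27% there, and replicate 2 shared 20.81% and 21.73%. Of the 1004 PIRs called in any replicate, 28 (2.79%) were called in all 4, 32 (3.19%) in both ESC replicates and no NEC replicate, and 23 (2.29%) in both NEC replicates and no ESC replicate. Over all baits of protein-coding genes these classes held 3.04%, 2.63% and 2.61%.

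**Figure D5:**
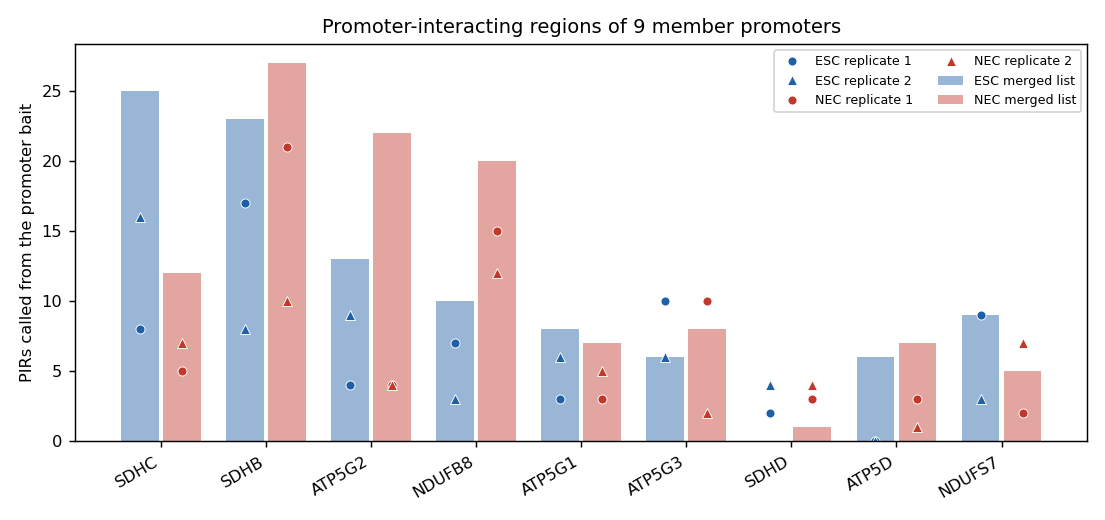
Number of PIRs called from the bait of member promoters, for the merged list of each cell type and for the single replicates. SDHC has 25 in the merged ESC list and 12 in the merged NEC list, and single replicates have 8 and 16 in ESCs.

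SDHC and SDHB had the most PIRs in the merged ESC list, with 25 and 23. SDHC had 12 in the merged NEC list, with 8 and 16 in single ESC replicates and 5 and 7 in single NEC replicates. SDHB had 27 in the merged NEC list, with 17 and 8 in single ESC replicates and 21 and 10 in single NEC replicates, which overlap. The other leaders in NECs were ATP5G2 with 22 and NDUFB8 with 20. ATP5G2 had 13 in the merged ESC list, with 4 and 9 in single ESC replicates and 4 and 4 in single NEC replicates, so the higher merged number in NECs was not seen in single replicates. Its PIR at chr12:53924028-53933014 (GRCh37), 140.8 kb away, was called in all 4 replicates, with merged scores of 18.98 in ESCs and 19.83 in NECs. NDUFB8 is an accessory subunit of complex I, and its bait also holds the start of HIF1AN, SEC31B and RP11-411B6.6. It had 10 in the merged ESC list, with 7 and 3 in single ESC replicates and 15 and 12 in single NEC replicates. These promoters were named for their high merged numbers, which pool the same replicates, so a difference between the cell types at them is no separate result. The mRNA of NDUFB8 did not pass (log2FC 0.01, SE 0.10, adjusted p = 0.952).

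Some baits of members were called with each other. ATP5D of complex V and NDUFS7 of complex I lie 140.1 kb apart on chromosome 19, and were called from the bait of NDUFS7 in both ESC replicates, with scores of 18.15 and 12.6, and in NEC replicate 2 with 18.36. NEC replicate 1 did not have this call. The bait of ATP5D had 0 PIRs in both ESC replicates, so neither of them called the pair from that side. The fragment of ATP5D also holds the starts of C19orf26 and MIDN, and that of NDUFS7 holds those of AC005329.6 and AC005329.7. ATP5D, the delta subunit, fell (log2FC −0.61, SE 0.10, adjusted p = 0.00276), and NDUFS7, a core subunit, did not pass (log2FC −0.10, SE 0.14, adjusted p = 0.534).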

How the data were processed

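RNA-seq and PCHi-C libraries of H9 ESCs and NECs were analysed, and the Hi-C samples were not used. Per the study's methods, the authors trimmed single-end reads with trim galore, mapped them to GRCh37 with TopHat (TopHat2 2.0.8b and Bowtie 1.0.0 in the submitters' processing notes), and deposited raw counts per gene from SeqMonk, without regard to strand. The authors also deposited CHiCAGO score lists on GRCh37, for each replicate and for both replicates combined.

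Counts were tested with edgeR 4.0.16 in R 4.3.3 (filterByExpr at a minimum count of 10, TMM, cell type as the only term, Benjamini-Hochberg over all tested genes), and the steps were tested on simulated counts. Positions are those of the count table. Lengths are canonical transcripts of the GENCODE annotation lifted to GRCh37, found for 105 of 106 members. Members, lists and tests were chosen with earlier results of these data known. The genes named were all mRNAs of chromosome MT, members past the fold limit, the 2 largest and 2 smallest log2FC in each role, isoform groups, the extremes of each pathway list with PPARGC1A, TFAM and POLRMT, the 3 promoters with most PIRs per cell type, and pairs called in both replicates of a cell type. A gene that these rules would name is not reported here. NDUFA3, NDUFC2, SDHAF1, SDHAF2, COX7C, ATP5B, ATP5J2, ATP5L, NRF1, GABPA and the single markers were named after their values were seen. Wilson 95% intervals of the share on chromosome MT cover counting error only and were far narrower than the replicate spread. Alternatives were other scalings and filters, DESeq2 1.42.0, a replicate block and left-out libraries, and for PCHi-C a score of at least 15, single replicates, and baits without other genes.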

Additional observations from a re-analysis of the deposited data

How the results depend on the processing

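The number of members that fell was 46, where 29.7% of all genes fell. It was 40 under library size alone (27.5% of all genes) and 54 without a low-count filter (24.1%). The number that rose was 6, but 10 under library size alone (33.9% of all genes rose), and 3 (without ESC replicate 1, 24.5%) to 9 (without NEC replicate 2, 30.4%) with 1 library left out. Library size alone moved the median log2FC of all genes from 0.01 to 0.07 and the nuclear median from −0.23 to −0.17. With 1 library left out, the nuclear median ranged from −0.27 to −0.22 and the mitochondrial median from −1.48 to −0.63. Past the fold limit was 1 member, but 3 without a low-count filter, 2 by DESeq2's test, 12 at an absolute log2FC above 1, and 1 (without NEC replicate 1) to 7 (without NEC replicate 2) with 1 library left out, with 5 without ESC replicate 1 and 2 without ESC replicate 2. The labels do not pair the replicates, and the replicate differences of the cell types correlated at 0.06 across genes. With the replicate block, 52 members fell, 6 rose, 2 were past the fold limit and all 13 mRNAs of chromosome MT fell. In that fit 30.5% of all genes fell and 32.1% rose. The share on chromosome MT ranged from 2.80% to 4.52% in ESCs and from 1.62% to 2.53% in NECs with 1 library left out. Counted by gene, 70 member promoters had a PIR in ESCs and 73 in NECs. With the score limit raised to 15 these were 39 and 39, with 114 and 98 PIRs. At that limit 44.2% of member baits had a PIR in each merged list. Of all baits with a protein-coding gene start, 44.5% did in ESCs and 48.2% in NECs, with 20418 and 22129 PIRs. Over baits with no other gene, 37 and 37 member promoters had a PIR, with 196 and 213 PIRs, which is 81.8% of those baits in each list. Single replicates gave 77 to 79 promoters in ESCs and 74 to 78 in NECs, with 329 to 353 and 283 to 376 PIRs. In replicates 1 and 2, 90.7% and 89.5% of member baits had a PIR in ESCs, and 89.5% and 86.0% in NECs. Over all baits with a protein-coding gene start these shares were 88.4% and 89.2% in ESCs and 89.1% and 88.2% in NECs. A higher score limit and fewer baits lower the numbers of promoters and PIRs by construction. Single replicates gave more promoters with a PIR than the merged lists of both cell types, but fewer PIRs. The cause of this and of the other shifts was not tested.

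Signs turned for 13 of the 101 tested members under 1 alternative or more, and none of the 13 had passed. Of the named genes, NDUFB8 was at −0.014 with DESeq2's size factors and by its test. Under library size alone, log2FC was 0.0533 for COX6C, 0.0008 for COX8A and 0.0319 for NDUFA4. With 1 library left out, it ranged from −0.0111 to 0.1081 for COX5B, −0.0654 to 0.0489 for COX6C, −0.1725 to 0.0298 for COX8A, −0.1502 to 0.0847 for NDUFA4, −0.0829 to 0.0739 for NDUFB8, −0.2691 to 0.0474 for NDUFS7, −0.0017 to 0.2874 for NDUFS8 and −0.0287 to 0.1244 for UQCR10, and from −3.3783 to 0.1492 for NDUFA4L2. The last of these passed without ESC replicate 2, and so did NDUFS8 without NEC replicate 2. DESeq2's test lost 5 calls among the members, of the named genes those of MT-ATP6, MT-CO2, MT-CO3 and NDUFA3, and added 6, of the named genes those of MT-ND3, COX4I1, COX7B and NDUFA4L2. The alternative without mitochondrial rRNA was not run, since the table has no such row. Leaving out a library leaves 1 sample in a cell type, which is assumed to vary like the other. The replicates number 2 per cell type, and the depth of PCHi-C calls is unknown.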
